A study of Homo sapiens with 12 samples.

Results

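The genes described here encode the RNA polymerase II elongation machinery, read in human fibroblasts with and without LEO1, a subunit of the PAF1 complex (PAF1C). The members were listed by name: 6 PAF1C subunits, the 12 subunits of RNA polymerase II and the elongation, H2B ubiquitination and termination factors that work with them, 51 genes in 14 modules. All 51 symbols matched 1 identifier each among the 60671 genes of the count table, and all 51 passed the filter on low counts that left 13236 genes. No measured value entered the rule, but earlier results of these data were known when the list was chosen. The cells were BJ-5ta, an hTERT-immortalized fibroblast line. Each of 4 groups had 3 libraries, numbered 1 to 12 across the series: unedited cells in 10% fetal bovine serum (WT_10), unedited cells after 10 days in 0.1% serum (WT_01), and LEO1 knockout cells in the same media (Leo1_10 and Leo1_01). The knockout was a CRISPR/Cas9 deletion between the first and the second exon, carried by a single clone, so clone and genotype cannot be told apart. Poly(A) RNA was sequenced from bulk cultures with ERCC spike-in RNA added. No source used here says whether the 3 libraries of a group came from separate cultures, so the p-values measure only the spread between these samples, which may be technical.

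PAF1C travels with RNA polymerase II along transcribed genes and aids elongation, ubiquitination of histone H2B by RNF20 and RNF40, and processing of transcript ends. Polymerase leaves its pause near the promoter when the kinase P-TEFb (CDK9 with cyclin T) acts on DSIF, NELF and the polymerase tail, and HEXIM1 with the 7SK particle holds P-TEFb inactive. The super elongation complex, built on the scaffolds AFF1 or AFF4 with an ELL protein and MLLT1 or MLLT3, brings active P-TEFb to genes.

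The libraries held 26240632 to 45315560 counts in genes, and ERCC transcripts took 0.625 to 3.24% of all counts. Within each group the highest-numbered library (3, 6, 9 and 12) stood apart: over the genes tested, the chi-square per gene between libraries was 66.2 to 144 for pairs that held it and 3.04 to 12.1 for the other pairs. Every pair differed by more than sampling noise, which does not show that its libraries came from separate cultures. All 12 libraries were counted. Leo1_01 library 12 had an ERCC share of 1.09%, against 1.88 and 3.24% in the other two of its group. All 11 fibroblast markers, among them COL1A1 and VIM, exceeded 1 CPM (count scaled to the library's total) in every library. The summed epithelial markers differed by genotype, at 264 to 399 CPM in WT_10 and 96.3 to 101 in WT_01 against 818 to 1114 in Leo1_10 and 469 to 559 in Leo1_01. Nearly all of this was KRT18, while CDH1 reached at most 1.42 CPM and EPCAM, KRT5 and KRT14 never exceeded 0.229 CPM. The 4 leukocyte markers summed to at most 1.70 CPM in WT libraries and to 2.68 to 8.24 CPM in knockout libraries, chiefly PTPRC, with CD3E at or below 0.0381 CPM. The part of these markers in the differences between genotypes was not tested.

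Values are given on 2 scales. ERCC-scaled counts divide by the spike-in counts (with TMM factors) and follow the amount of RNA relative to the spike-in, where less RNA per cell and fewer cells cannot be told apart. The relative scale (TMM factors on the genes, given as TMM-scaled CPM) compares a gene with the other genes of its library. Between serum conditions the median log2 fold change of all genes tested was -0.97 (WT) and -1.05 (knockout) on the ERCC scale and 0.00 and 0.01 on the relative scale, and between genotypes it was 0.35 in 10% serum and 0.27 in 0.1% serum against 0.00 and 0.02. Tests were edgeR quasi-likelihood fits over all 12 libraries and 13236 genes, with Benjamini-Hochberg adjustment, and "called" means an adjusted p under 0.05. Differences are log2 fold changes ± SE.

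LEO1 (chromosome 15, 51938025 to 51971806, minus strand, GRCh38) was low in every knockout library. It had 851, 935 and 915 raw counts in WT_10 and 1001, 799 and 682 in WT_01, against 53, 36 and 55 in Leo1_10 and 23, 47 and 49 in Leo1_01. The genotypes did not overlap, as their labels require. On the ERCC scale LEO1 fell 16.2-fold in 10% serum (-4.02 ± 0.58, 95% interval -5.15 to -2.89, adjusted p = 2.39e-10). In 0.1% serum it fell 20.0-fold (-4.32 ± 0.59, adjusted p = 2.10e-11). Per kilobase of exon, LEO1 made up 13.7% ± 0.251 (SD, n = 3) of the summed level of the 6 PAF1C subunits in WT_10 and 0.646% ± 0.165 in Leo1_10.

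The question for the rest of PAF1C was whether its mRNAs change when LEO1 is lost. No other subunit was called between genotypes on the ERCC scale in either serum, where intervals were wide: the PAF1 difference in 10% serum was 0.45, with an interval from -0.49 to 1.39. On the relative scale CTR9 rose in both sera and SKIC8 in 10% serum, and PAF1, CDC73 and RTF1 were not called.

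CTR9, a large repeat protein that scaffolds the complex (chromosome 11, 10750987 to 10801625), had 63.0, 61.5 and 65.5 TMM-scaled CPM in WT_10 and 94.8, 92.1 and 98.7 in Leo1_10. In low serum it had 67.1, 61.5 and 58.1 in WT_01 and 75.4, 73.1 and 75.5 in Leo1_01. Knockout and WT libraries did not overlap in either serum. On this scale every knockout library lay above every WT library for 29.2% of all genes in 10% serum and 20.5% in 0.1% serum. The reverse held for 30.1% and 21.7%. The relative difference of CTR9 was 0.59 ± 0.074 in 10% serum (adjusted p = 8.12e-05). It was 0.26 ± 0.074 in 0.1% serum (adjusted p = 0.0179), a call lost without WT_01 library 8 (adjusted p = 0.0621). SKIC8, a WD-repeat subunit also called WDR61 (chromosome 15, 78277835 to 78299794), had 28.8 to 29.1 TMM-scaled CPM in WT_10, 35.8, 34.1 and 36.3 in Leo1_10, 24.9, 22.3 and 21.8 in WT_01 and 28.6, 26.3 and 25.1 in Leo1_01. Again the genotypes were apart in each serum. The relative difference of SKIC8 was 0.29 ± 0.083 in 10% serum (adjusted p = 0.0160, and 0.0520 without Leo1_10 library 4), and 0.21 ± 0.084 in 0.1% serum, where it was not called (adjusted p = 0.0730).

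PAF1, the subunit that names the complex, had 54.5, 55.4 and 55.5 TMM-scaled CPM in WT_10, 59.6, 58.3 and 59.7 in Leo1_10, 53.9, 56.3 and 66.1 in WT_01 and 50.5, 55.6 and 54.0 in Leo1_01. CDC73, the tumour suppressor parafibromin, had 58.2, 55.6 and 62.5 in WT_10, 60.7, 64.9 and 67.8 in Leo1_10, 54.3, 50.2 and 50.4 in WT_01 and 57.0, 56.9 and 64.8 in Leo1_01. RTF1, which drives H2B ubiquitination and is loosely bound in human cells, had 97.5, 92.9 and 86.7 in WT_10, 104, 98.0 and 101 in Leo1_10, 107, 109 and 96.0 in WT_01 and 108, 109 and 88.9 in Leo1_01. The knockout libraries lay above the WT libraries for PAF1 and RTF1 in 10% serum and for CDC73 in 0.1% serum, by little, and overlapped them otherwise. The same separation was seen in 29.2% of all genes tested in 10% serum and 20.5% in 0.1% serum. On the relative scale the 95% intervals in 10% serum ran from -0.08 to 0.29 (PAF1), from -0.05 to 0.32 (CDC73) and from -0.08 to 0.34 (RTF1).

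Per kilobase of exon the members' levels in WT_10 ranged from 2.41 ± 0.228 TMM-scaled CPM per kb (SD, n = 3) for the cyclin CCNT2 to 86.7 ± 10.5 for POLR2L, with the catalytic subunit POLR2A second at 38.1 ± 3.81. Within PAF1C the shares of the summed level per kb in WT_10 were 31.5% ± 0.503 for PAF1, 24.4% ± 1.33 for RTF1, 16.0% ± 0.529 for CTR9, 8.37% ± 0.497 for CDC73 and 6.06% ± 0.0517 for SKIC8. In Leo1_10, where LEO1 was nearly gone from the sum, CTR9 held 23.6% ± 0.376 and PAF1 33.2% ± 0.327. In the pausing complex NELF the subunits NELFB (40.4% ± 1.15) and NELFE (40.1% ± 0.626) exceeded NELFCD (12.2% ± 0.314) and NELFA (7.29% ± 0.532) in WT_10. The lengths used cover all annotated exons of a gene, 2698 bases for NELFB and 6298 for NELFCD. Ranks and shares between genes therefore depend on the annotation: without the length NELFB had 56.4 and NELFCD 39.9 TMM-scaled CPM. Of the super elongation genes MLLT1 (31.3% ± 1.46) and ELL2 (28.6% ± 1.30) held the largest shares.

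**Figure D1:**
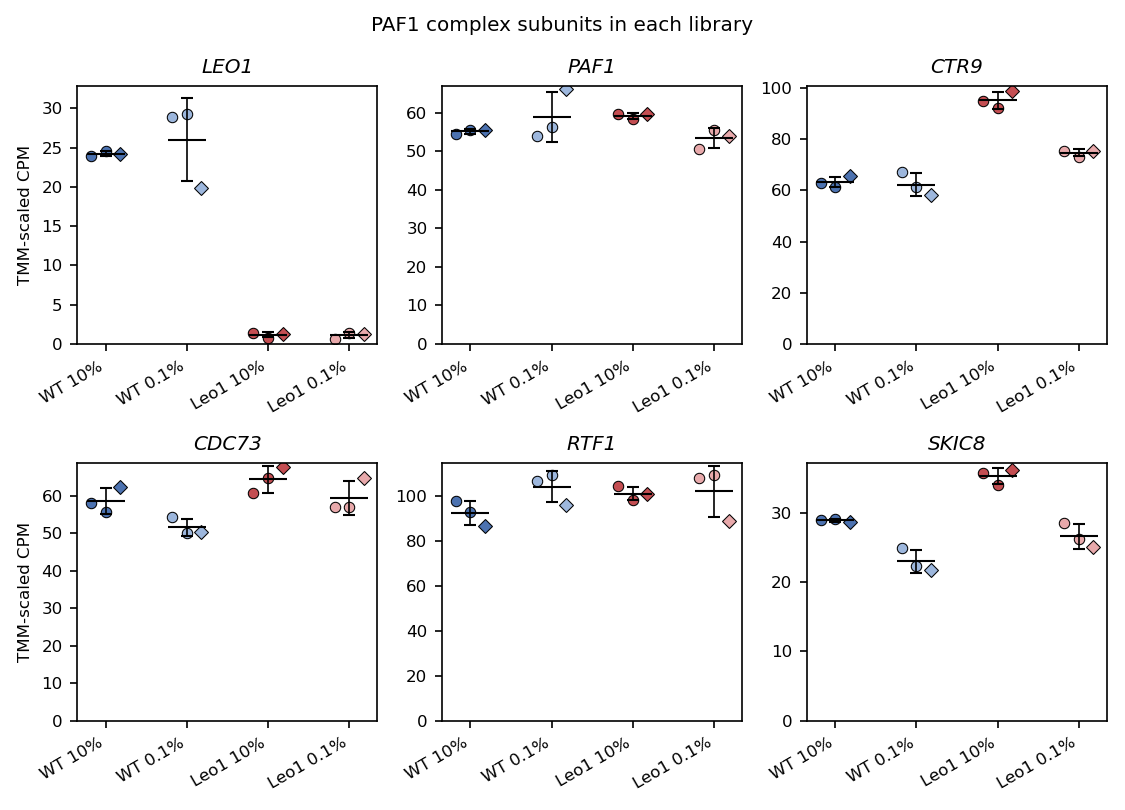
TMM-scaled CPM (linear axis from 0) of the 6 PAF1C subunits in each library of the 4 groups; diamonds mark the highest-numbered library, horizontal bars the mean and error bars the SD of 3 libraries. LEO1 lies between 0.675 and 1.42 in the knockout libraries, and CTR9 lies between 92.1 and 98.7 in Leo1_10, above the 61.5 to 65.5 of WT_10.

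Across all modules LEO1 was the only member called between genotypes on the ERCC scale. In 10% serum 0 of 51 members were called higher (background 3.81% of all genes tested) and 1 lower (background 4.20%), and in 0.1% serum again 0 higher (3.49%) and 1 lower (3.41%). At an unadjusted p under 0.05, 2 members were higher in 10% serum and 0 in 0.1% serum, and neither edgeR's likelihood ratio test nor DESeq2 with ERCC size factors called a member higher. The median member was 0.51 higher in knockout cells in 10% serum, against 0.35 for all genes, and 0.34 higher in 0.1% serum, against 0.27. The second value rested on Leo1_01 library 12 and was -0.13 without it, and -0.29 without the highest-numbered library of every group.

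On the relative scale 12 members were called higher in knockout cells in 10% serum and 2 lower, where 17.9% and 21.4% of all genes were called, and 8 were higher and 3 lower in 0.1% serum, with backgrounds of 15.1% and 17.3%. The members called higher, 23.5% in 10% serum and 15.7% in 0.1% serum, were near these backgrounds. Those called lower, 3.92% and 5.88% with LEO1 included, were below theirs. The 7 genes CTR9, SUPT5H, NELFCD, POLR2D, POLR2F, POLR2K and UBE2A were called higher in both sera (7 of the 12 and 7 of the 8), and HEXIM1 and LEO1 lower in both. All of these calls were also made without the highest-numbered libraries, a lenient check, since it keeps only the closest pair of each group and so a smaller spread. When each group's 2 lowest-numbered libraries were added into 1, CTR9, POLR2K and LEO1 stayed called in 10% serum and LEO1 alone in 0.1% serum. The share of all genes tested that was called in both sera was not counted. The 12 became 7 without WT_10 library 1 or Leo1_10 library 5 and 8 without WT_10 library 2 or Leo1_10 library 4, and the 8 became 13 without Leo1_01 library 12. Apart from LEO1, each of the other 50 members had an unadjusted 95% interval within 2-fold in both sera, the furthest bounds being 0.99 for CHD1 and -0.80 for MLLT3, both in 10% serum.

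Of the 12 polymerase subunits 4 were called higher in 10% serum, and in 0.1% serum 3 were called higher and 1 lower. The backgrounds were 17.9% of all genes tested higher in 10% serum, and 15.1% higher and 17.3% lower in 0.1% serum. POLR2F, shared by the nuclear polymerases, had 18.5, 19.9 and 21.5 TMM-scaled CPM in WT_10 and 33.0, 30.1 and 30.3 in Leo1_10. It had 17.1, 20.7 and 21.9 in WT_01 and 36.6, 33.9 and 26.4 in Leo1_01. The genotypes were apart in both sera, with differences of 0.64 ± 0.13 (adjusted p = 0.00243) and 0.70 ± 0.13 (adjusted p = 0.00194). POLR2K, a small zinc-binding shared subunit, rose by 0.54 ± 0.089 and 0.38 ± 0.089. POLR2D, of the polymerase stalk, rose by 0.38 and 0.43, and POLR2H by 0.37 in 10% serum. POLR2B, the second-largest subunit, had 125, 114 and 107 TMM-scaled CPM in WT_01 and 79.8, 75.5 and 92.7 in Leo1_01. It fell without overlap in 0.1% serum (-0.48 ± 0.090, adjusted p = 0.00181) and had -0.22 without a call in 10% serum. Its exons overlap those of NOA1 and IGFBP7 on the other strand over 733 bases. The catalytic subunit POLR2A, with -0.19 and 0.16, was not called in either serum.

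HEXIM1, the inhibitor of P-TEFb, was the only member besides LEO1 called lower in knockout cells in both sera on the relative scale. It had 66.2, 63.5 and 69.0 TMM-scaled CPM in WT_10 and 58.1, 51.5 and 60.7 in Leo1_10, and 54.1, 56.4 and 57.2 in WT_01 against 41.2, 40.9 and 41.6 in Leo1_01. Knockout libraries lay below WT libraries in each serum, as for 30.1% of all genes tested in 10% and 21.7% in 0.1% serum. The differences were -0.22 ± 0.078 (adjusted p = 0.0400) and -0.44 ± 0.078 (adjusted p = 0.00132). Leaving out 1 library kept the call in 5 of 12 fits in 10% serum (adjusted p up to 0.170, without Leo1_10 library 5) and in 12 of 12 in 0.1% serum. On the ERCC scale the values were 0.13 and -0.17, of opposite sign, and neither was called. The P-TEFb cyclins CCNT1 (0.36 ± 0.11) and CCNT2 (0.42 ± 0.15) rose relative to other genes in 10% serum, and the kinase CDK9 had 0.21 without a call.

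The remaining relative calls fell on single members of their modules. SUPT5H, the large DSIF subunit, had 117, 115 and 122 TMM-scaled CPM in WT_10 and 149, 148 and 147 in Leo1_10, a rise of 0.33 ± 0.065 (adjusted p = 0.00198), and rose by 0.27 in 0.1% serum. NELFCD rose by 0.27 and 0.44, while the other NELF subunits NELFA, NELFB and NELFE were not called. UBE2A, a ubiquitin-conjugating enzyme that serves RNF20 and RNF40, rose by 0.32 and 0.36, and those ligases and its paralog UBE2B were not called. CHD1, a chromatin remodeller that binds methylated histone H3, had 32.2, 30.9 and 36.8 TMM-scaled CPM in WT_10 and 51.9, 53.6 and 45.9 in Leo1_10. It rose by 0.60 ± 0.18 in 10% serum (adjusted p = 0.0190, and up to 0.0703 without 1 of 4 single libraries), and had 0.27 without a call in 0.1% serum. SUPT6H, IWS1, the FACT and TFIIS genes, CDK12, CDK13, CCNK, LARP7, XRN2 and PCF11 gave no call between genotypes. Because the knockout is 1 clone, the genes tested within 5 Mb of each called member were also read: their median relative differences lay between -0.14 and 0.11 in 10% serum and between -0.15 and 0.18 in 0.1% serum, the lowest around POLR2B (23 genes) and the highest around POLR2F (108 genes).

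**Figure D2:**
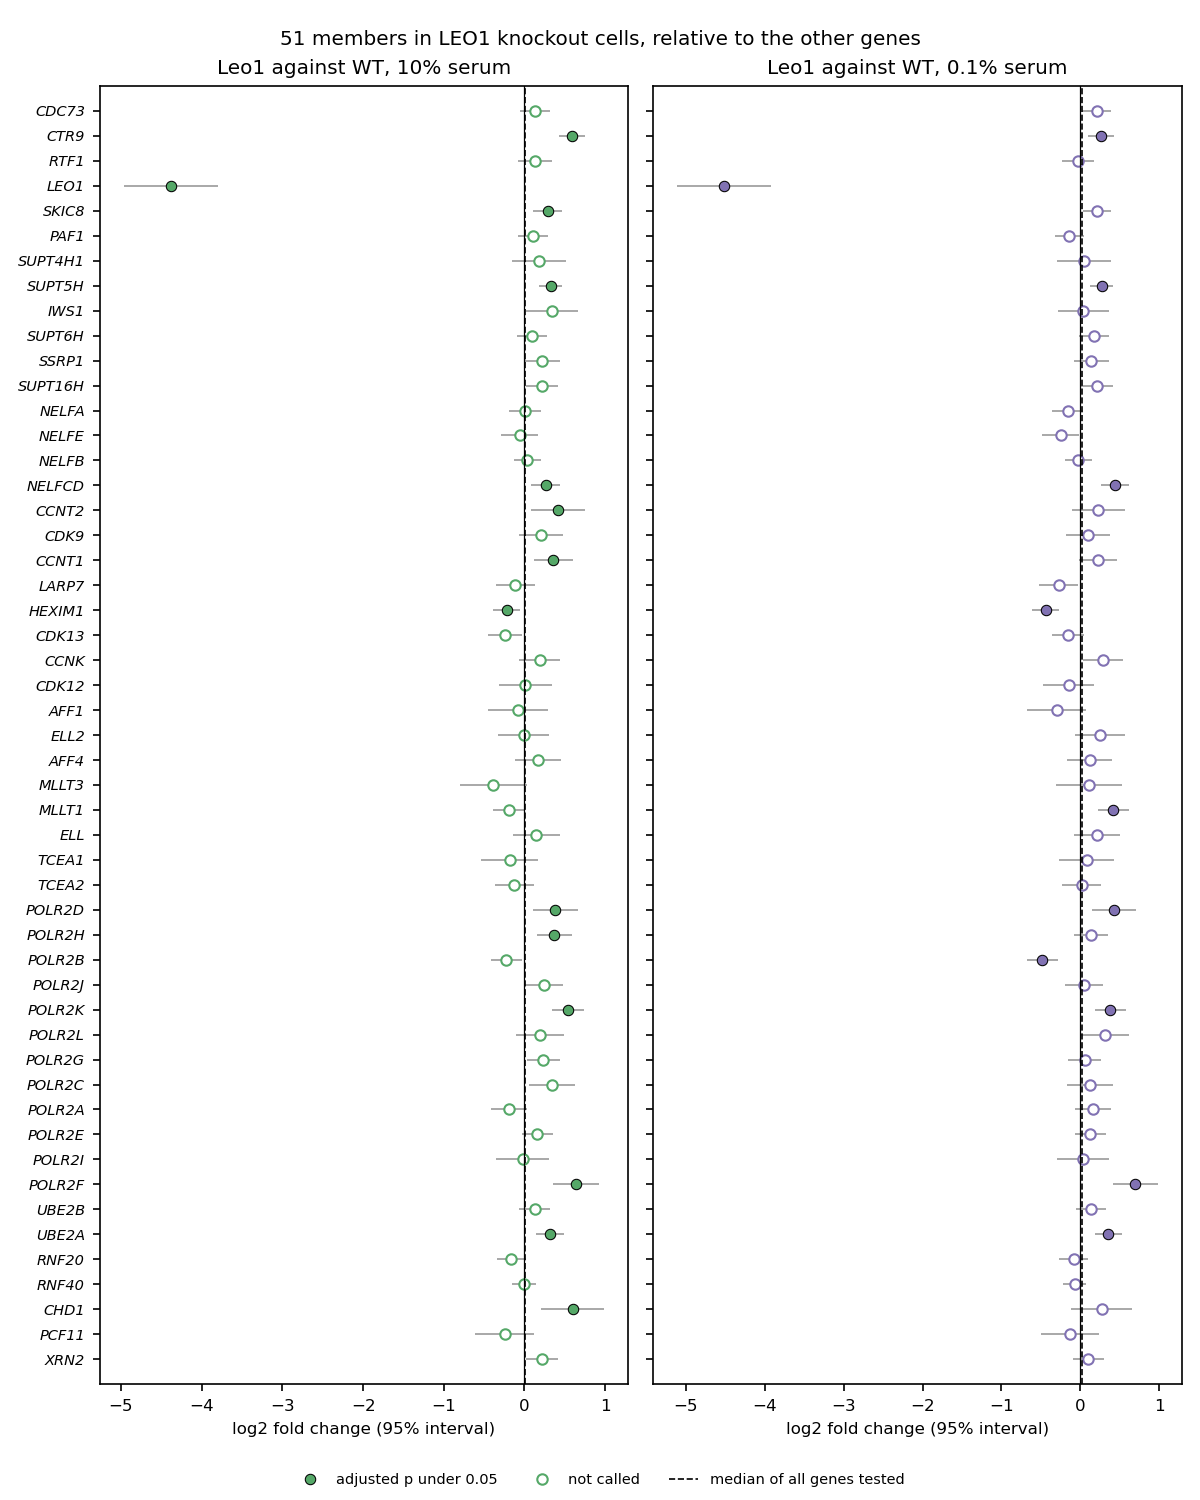
Relative log2 fold changes (x axis) of the 51 members in knockout against WT cells, in 10% serum (left) and 0.1% serum (right), with 95% intervals; filled points were called, open points were not, and the dashed line is the median of all genes tested. LEO1 lies at -4.38 and -4.51, and the other 50 members lie within 1 log2 unit of 0.

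In low serum all 51 members had lower ERCC-scale estimates in both genotypes. In WT cells 10 were called lower (19.6%, against 27.0% of all genes tested) and 0 higher (background 0.831%), and in knockout cells 20 were called lower (39.2%, against 36.4%) and 0 higher (background 0.793%). No member was higher at an unadjusted p under 0.05 in either genotype, nor called higher by edgeR's likelihood ratio test or DESeq2 with ERCC size factors. The median member was at -0.96 in WT and -1.10 in knockout cells, beside -0.97 and -1.05 for all genes. For 34 of 51 members in WT cells (53.4% of all genes) and for 34 of 51 in knockout cells (50.9%), every low-serum library lay below every 10% library. The counts of calls rested on single libraries. The WT count was 0 without WT_01 library 9, 34 without Leo1_01 library 11 and 41 without Leo1_01 library 12, and 1 to 6 or 19 without each of the others. The Leo1_01 libraries are in neither WT group. They enter through steps shared by all libraries: the filter, the ERCC factors, the estimate of the spread and the adjustment. The knockout count was 0 without Leo1_01 library 10, 3 without library 11 and 51 without library 12, 2 and 4 without Leo1_10 libraries 4 and 5, 7 without WT_10 library 2 or WT_01 library 7, and 16 to 22 without each of the rest.

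Relative to other genes, 2 members were called higher and 7 lower in low serum in WT cells (backgrounds 15.5% and 16.1%) and 2 higher and 6 lower in knockout cells (backgrounds 15.5% and 12.1%). The 5 members SKIC8, HEXIM1, ELL2, AFF1 and POLR2L were called lower in both genotypes on both scales. AFF4, POLR2E and UBE2A were the other 3 of the 8 members lower in both genotypes on the ERCC scale. The shares of all genes tested that met these joint rules were not counted.

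The furthest single estimates between sera were ELL2 in WT and AFF1 in knockout cells, both of the super elongation complex. The 6 genes of the complex did not move alike. Their ERCC-scale median was -1.37 in WT and -1.10 in knockout cells. The estimates nearest 0 were -0.62 for ELL in WT and -0.49 for MLLT1 in knockout cells. ELL2 (chromosome 5, 95885098 to 95962071), an elongation factor known from antibody-secreting cells, had 19049, 15944 and 12510.0 ERCC-scaled counts in WT_10 and 4708, 6002 and 2835 in WT_01. In knockout cells it had 24838, 19626 and 16600.1 in 10% serum and 5626, 3776 and 8175 in 0.1% serum. Low-serum libraries lay below all others. ELL2 fell by 1.81 in WT cells (± 0.48, adjusted p = 0.00300) and by 1.80 in knockout cells (± 0.48, adjusted p = 0.00460) on the ERCC log2 scale, and by 0.89 and 0.64 relative to other genes. About 4.74% of its 58-base stretches also occur in other transcripts, ELL2P1 foremost.

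AFF1 (chromosome 4, 86935002 to 87141054), a scaffold of the complex, had 6731, 5545 and 4252 ERCC-scaled counts in WT_10, 1908, 2059.8 and 1286 in WT_01, 8237, 6282 and 5628 in Leo1_10 and 1221, 719 and 3744 in Leo1_01. The sera did not overlap in either genotype. AFF1 fell by 1.65 (± 0.49, adjusted p = 0.00846) and by 1.83 (± 0.49, adjusted p = 0.00473), and relative to other genes by 0.70 and 0.92. MLLT3, a reader of acylated histones, had 4892, 4049 and 2737 ERCC-scaled counts in WT_10, 1178, 1478 and 1276 in WT_01, 4518, 3492 and 3306 in Leo1_10 and 1207, 738 and 3878 in Leo1_01. It fell by 1.57 in WT cells (adjusted p = 0.0129). In knockout cells, where library 12 lay among the 10% libraries, it had -0.96 and was not called.

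POLR2L, a small subunit shared by the nuclear polymerases (chromosome 11, 837356 to 842545), was the member with the highest level per kilobase in WT_10 (86.7 ± 10.5 TMM-scaled CPM per kb, SD, n = 3). It had 10904, 9876 and 7526 ERCC-scaled counts in WT_10, 2705, 3929 and 2784 in WT_01, 17225, 11217 and 13389 in Leo1_10 and 4245, 2590.0 and 6849 in Leo1_01, again without overlap between sera. It fell by 1.59 (adjusted p = 0.0106) and by 1.61 (adjusted p = 0.0118), the furthest estimate of the 12 polymerase subunits in each genotype. The other subunits in WT cells ranged from -0.85 (POLR2C) to -1.20 (POLR2A), and POLR2A and POLR2E were called. In knockout cells POLR2B, POLR2C, POLR2E, POLR2G, POLR2H, POLR2J and POLR2K were called besides POLR2L. The backgrounds of lower calls were 27.0% of all genes tested in WT and 36.4% in knockout cells.

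In the PAF1 complex SKIC8 was called in both genotypes. It had 3571, 2979 and 1931 ERCC-scaled counts in WT_10, 1203, 1402 and 831 in WT_01, 5542, 3927 and 3698 in Leo1_10 and 1477, 801 and 2423 in Leo1_01. It fell by 1.30 (adjusted p = 0.0368) and by 1.49 (adjusted p = 0.0208). CTR9 had 7765, 6285 and 4401 ERCC-scaled counts in WT_10, 3239, 3858 and 2217 in WT_01, 14672, 10618 and 10049 in Leo1_10 and 3892, 2224 and 7293 in Leo1_01, and the sera did not overlap in either genotype. It fell by 1.40 in knockout cells (adjusted p = 0.0252) and had -0.99 in WT cells (adjusted p = 0.0869). Relative to other genes it was called lower in knockout cells, at -0.35, and had -0.03 in WT cells. The difference between these responses was -0.32 (adjusted p = 0.164) and was not called. PAF1 was also called lower on the ERCC scale in knockout cells (-1.21), and RTF1, CDC73 and LEO1 were called in neither genotype.

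HEXIM1 had 8152, 6492 and 4631 ERCC-scaled counts in WT_10, 2613, 3540.3 and 2181 in WT_01, 8996, 5930.0 and 6183 in Leo1_10 and 2128, 1245 and 4022 in Leo1_01. The sera were apart in both genotypes, and HEXIM1 fell by 1.21 (adjusted p = 0.0469) and by 1.51 (adjusted p = 0.0181). For SKIC8, HEXIM1, ELL2, AFF1 and POLR2L leaving out 1 library ended the ERCC-scale call in 1 to 9 of the 12 fits in WT cells and in 1 to 4 in knockout cells, with adjusted p up to 0.220 (HEXIM1, WT). ELL2 lost it only without WT_01 library 9 in WT cells (adjusted p = 0.0559) and without Leo1_01 library 10 in knockout cells (adjusted p = 0.0653).

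**Figure D3:**
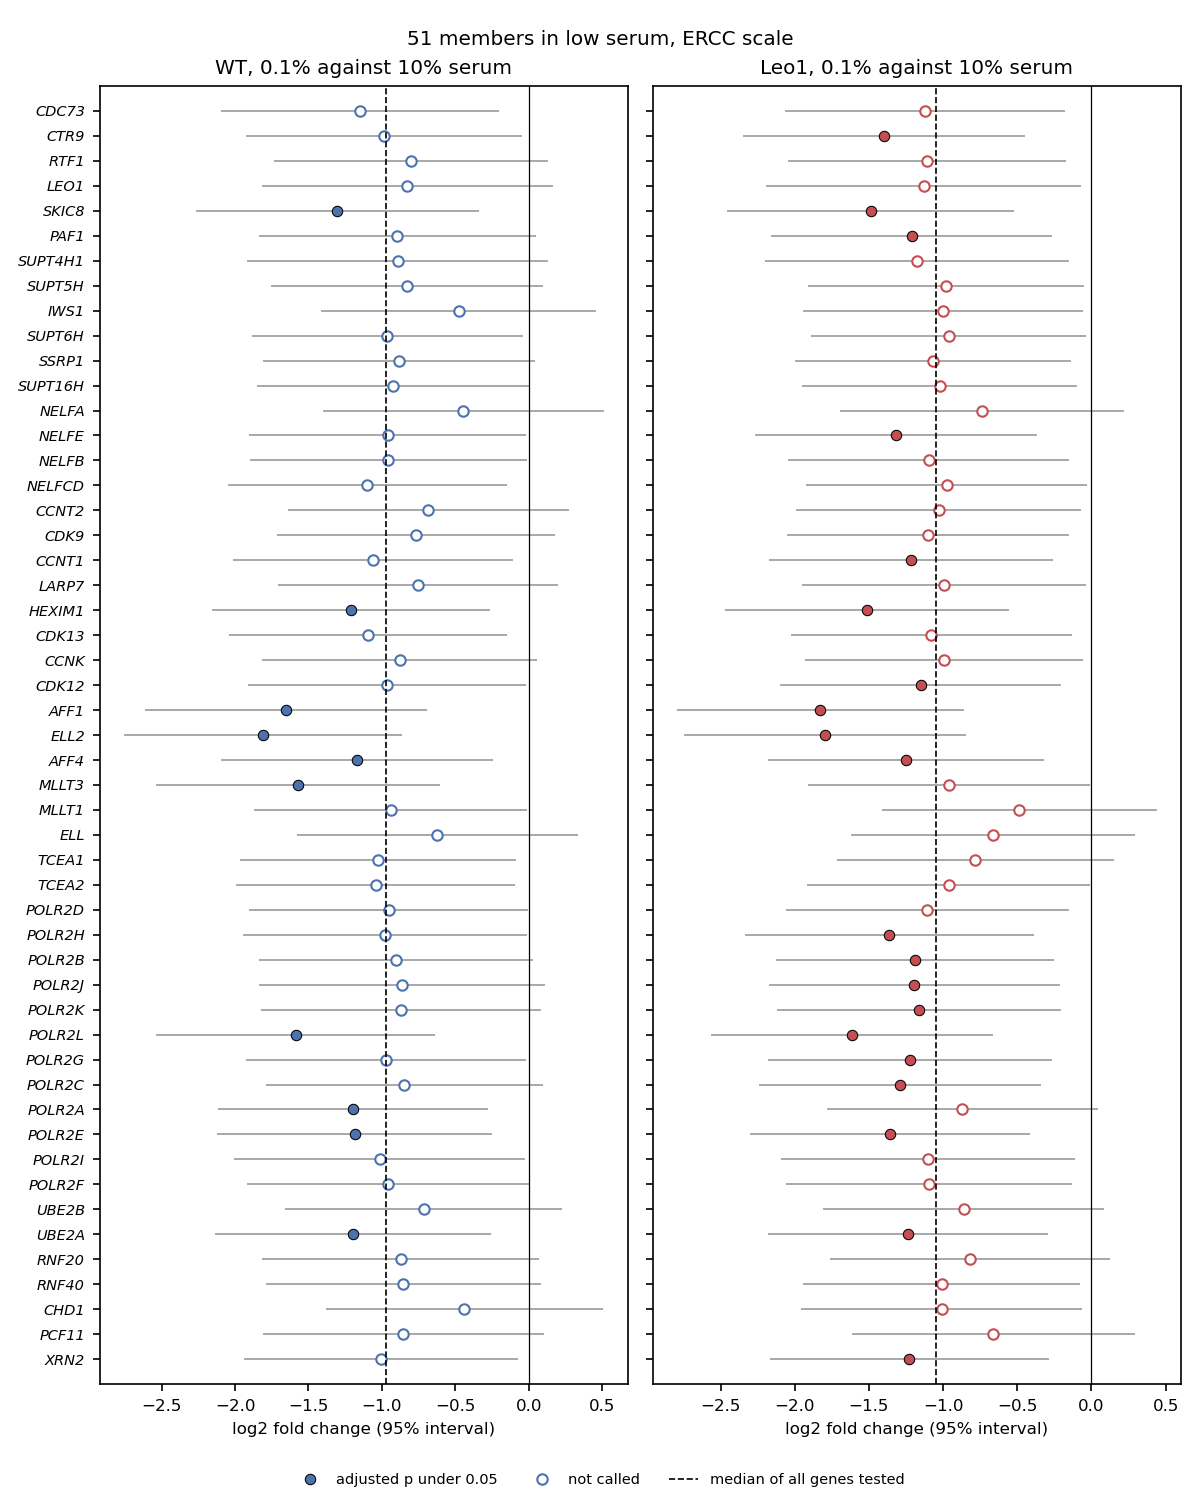
ERCC-scale log2 fold changes (x axis) of the 51 members in 0.1% against 10% serum, in WT (left) and knockout (right) cells, with 95% intervals; filled points were called, and the dashed line is the median of all genes tested. All points lie below 0, around the medians of -0.97 and -1.05, with ELL2 at -1.81 in WT and AFF1 at -1.83 in knockout cells furthest to the left.

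**Figure D4:**
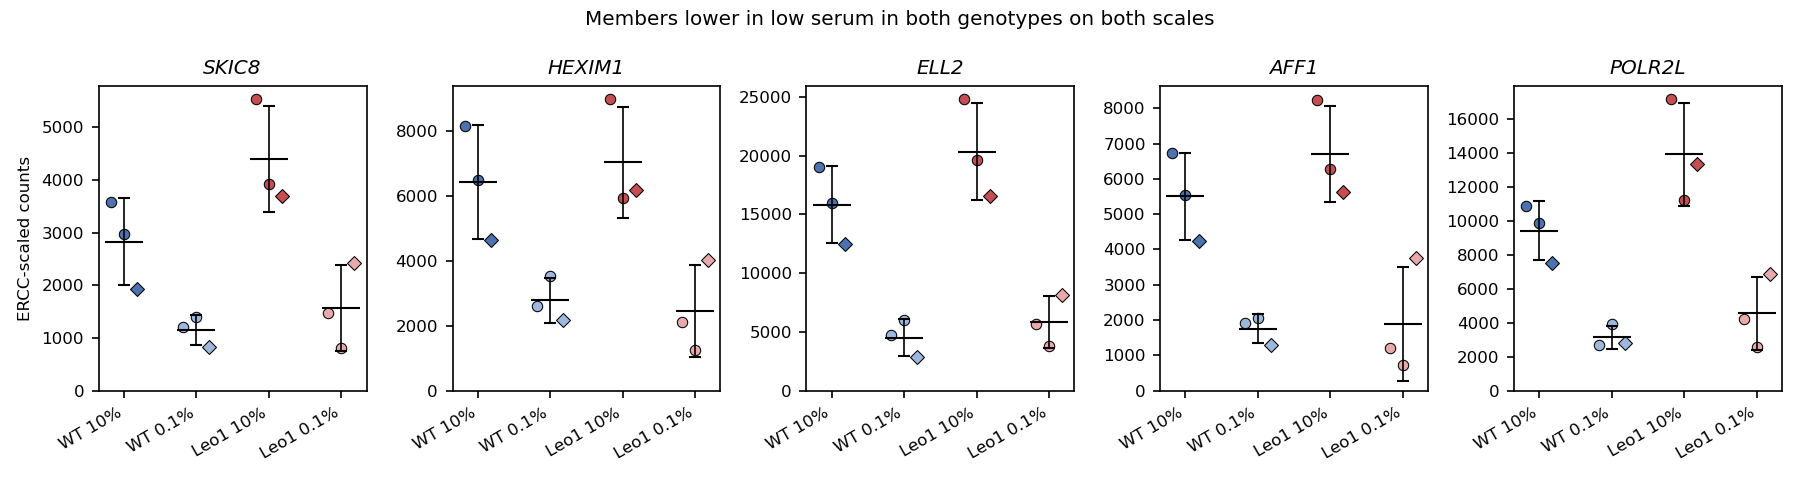
ERCC-scaled counts (linear axis from 0) in each library for the 5 members called lower in low serum in both genotypes on both scales; diamonds mark the highest-numbered library, bars the mean and error bars the SD of 3 libraries. In Leo1_01 the diamond, library 12, is the highest of its group for all 5 genes.

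NELFA, a subunit of the pausing factor, was called higher in low serum in both genotypes relative to other genes. It had 20.9, 21.4 and 24.9 TMM-scaled CPM in WT_10, 29.7, 33.6 and 30.9 in WT_01, 22.9, 21.5 and 23.1 in Leo1_10 and 29.5, 27.0 and 27.7 in Leo1_01. Its low-serum libraries lay above its 10% libraries, with differences of 0.49 ± 0.092 (adjusted p = 0.00241) and 0.32 ± 0.092 (adjusted p = 0.0236). Low-serum libraries lay above for 24.7% of all genes tested in WT and 22.2% in knockout cells. On the ERCC scale NELFA had -0.45 and -0.74, with the opposite sign and without a call. IWS1, a partner of SPT6, rose by 0.42 relative to other genes in WT cells (adjusted p = 0.0488), a call that held in 4 of 12 fits that left out 1 library. No member was called in opposite directions on the 2 scales.

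MLLT1, the paralog of MLLT3, was the only member with a called difference between the serum responses of WT and knockout cells. It had 114, 118 and 119 TMM-scaled CPM in WT_10 and 121, 122 and 111 in WT_01, but 102, 97.7 and 106 in Leo1_10 and 164, 171 and 138 in Leo1_01. In WT cells the sera overlapped, and in knockout cells every low-serum library was above the 10% libraries (0.63 ± 0.089, adjusted p = 0.000536). Such a separation was seen in 22.2% of all genes tested in knockout cells. The genotype-by-serum term of MLLT1 came to 0.62 ± 0.13 on the relative scale (adjusted p = 0.0319), 1 of 51 members higher (background 1.55%) and 0 lower (background 0.453%, with 1 member lower at an unadjusted p under 0.05 and 0 called by edgeR's likelihood ratio test). It was called in 3 of 12 fits that left out 1 library (adjusted p up to 0.0943, without WT_10 library 2), and without the highest-numbered libraries (0.67, adjusted p = 5.28e-05), but not when each group's 2 lowest-numbered libraries were added into 1 (0.56, adjusted p = 0.808). On the ERCC scale 0 members were called higher (background 0.113%) or lower (background 0.0604%), 0 had an unadjusted p under 0.05, and edgeR's likelihood ratio test and DESeq2 with ERCC size factors also called 0. MLLT1 had 0.45 there, with an interval from -0.85 to 1.76.

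Ratios of 2 members within a library do not depend on the scaling, and are given per kilobase of exon and without a test. Their size depends on the annotated exon lengths, which are the same in every group. ELL to ELL2 was 0.189, 0.187 and 0.221 in WT_10 and 0.390, 0.429 and 0.588 in WT_01, and 0.235, 0.210 and 0.227 in Leo1_10 against 0.466, 0.343 and 0.580 in Leo1_01. The sera were apart in both genotypes, with more ELL per ELL2 in low serum. AFF1 to AFF4 was 0.306 to 0.338 in WT_10, 0.212 to 0.261 in WT_01, 0.262 to 0.275 in Leo1_10 and 0.152 to 0.197 in Leo1_01. Low-serum libraries held less AFF1 per AFF4 than 10% libraries, and knockout libraries less than WT libraries of the same serum. The 36 genes tested within 5 Mb of AFF1 were also lower in knockout cells, with median relative differences of -0.31 in 10% and -0.47 in 0.1% serum. AFF1 itself had -0.08 and -0.30, and the 45 genes around AFF4 had medians of 0.12 and 0.08. The part of these regions in the ratio was not tested. HEXIM1 to CDK9, the inhibitor per kinase, was 1.36 to 1.46 in WT_10, 1.01 to 1.10 in WT_01, 0.951 to 1.15 in Leo1_10 and 0.633 to 0.943 in Leo1_01, lower in knockout than in WT libraries of each serum. UBE2A to UBE2B, 2 paralogous enzymes of H2B ubiquitination, was 1.20 to 1.32 in WT_10, 0.844 to 0.963 in WT_01, 1.38 to 1.45 in Leo1_10 and 0.952 to 1.19 in Leo1_01, lower in low serum in both genotypes. All 4 groups overlapped for TCEA1 to TCEA2, the TFIIS paralogs, between 2.45 and 2.79 in group means.

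**Figure D5:**
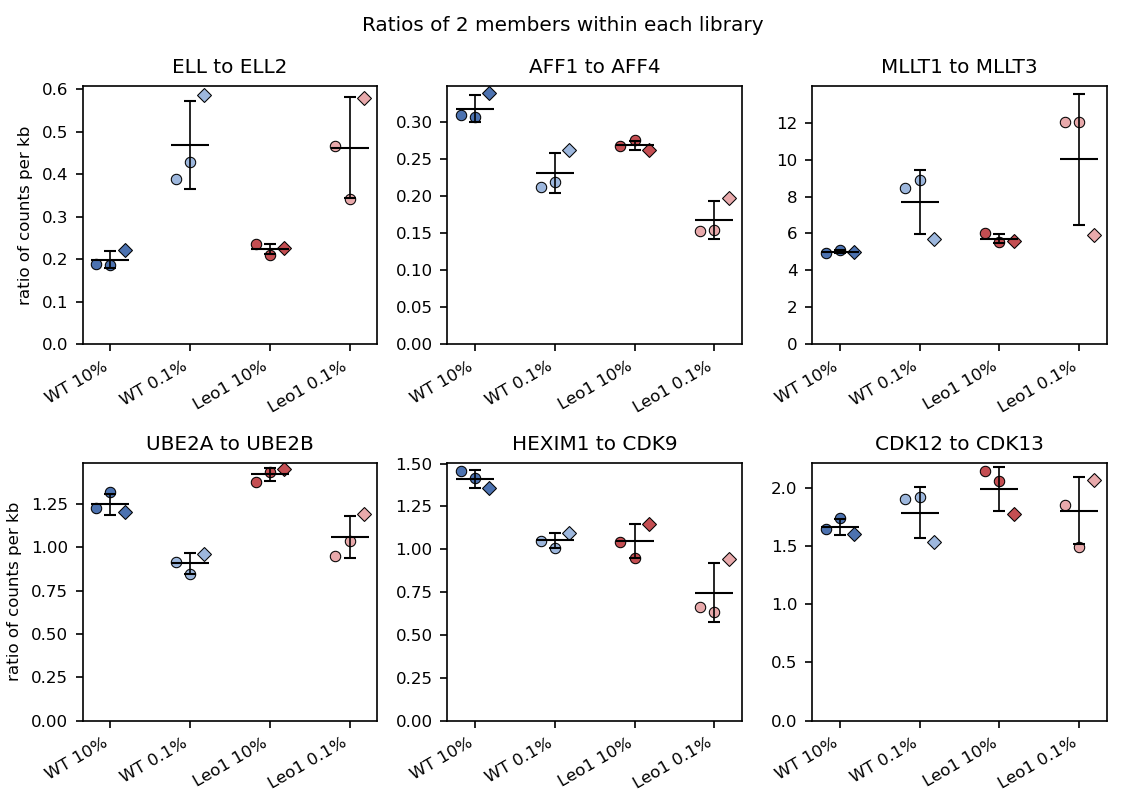
Ratios of counts per kb of exon between 2 members (linear axis from 0) within each library of the 4 groups; diamonds mark the highest-numbered library, bars the mean and error bars the SD of 3 libraries. ELL to ELL2 has means of 0.199 and 0.224 in 10% serum and 0.469 and 0.463 in 0.1% serum, and HEXIM1 to CDK9 has a mean of 1.41 in WT_10 and 0.747 in Leo1_01.

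Promoter windows of 300 bases around the start are shown for 3 of the members called lower in low serum in both genotypes on both scales, from the RefSeq table used, 5′ to 3′ on the gene's strand (GRCh38.p14). Capitals mark letters found on either strand: the TATA box TATAAA, the CCAAT box CCAAT, the GC box GGGCGG, the E-box CACGTG, the AP-1 site TGACTCA and the ETS site CCGGAA. The windows are chr4:86934761-86935060 (AFF1, plus strand), chr17:45148225-45148524 (HEXIM1, plus strand), chr15:78299560-78299859 (SKIC8, minus strand). In SKIC8 2 of the 3 ETS matches overlap on opposite strands.
AFF1: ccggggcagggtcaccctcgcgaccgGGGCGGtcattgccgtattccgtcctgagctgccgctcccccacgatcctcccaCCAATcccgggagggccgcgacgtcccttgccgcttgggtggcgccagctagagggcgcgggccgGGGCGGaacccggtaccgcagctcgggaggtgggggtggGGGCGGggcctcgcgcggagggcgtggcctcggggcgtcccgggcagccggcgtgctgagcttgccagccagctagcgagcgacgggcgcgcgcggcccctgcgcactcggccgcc
HEXIM1: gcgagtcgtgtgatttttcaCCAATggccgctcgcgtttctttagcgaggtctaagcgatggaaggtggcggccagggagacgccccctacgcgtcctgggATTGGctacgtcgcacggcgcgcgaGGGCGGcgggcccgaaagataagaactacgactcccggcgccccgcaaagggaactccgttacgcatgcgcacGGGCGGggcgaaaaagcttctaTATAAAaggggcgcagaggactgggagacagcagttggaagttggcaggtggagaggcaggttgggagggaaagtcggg
SKIC8: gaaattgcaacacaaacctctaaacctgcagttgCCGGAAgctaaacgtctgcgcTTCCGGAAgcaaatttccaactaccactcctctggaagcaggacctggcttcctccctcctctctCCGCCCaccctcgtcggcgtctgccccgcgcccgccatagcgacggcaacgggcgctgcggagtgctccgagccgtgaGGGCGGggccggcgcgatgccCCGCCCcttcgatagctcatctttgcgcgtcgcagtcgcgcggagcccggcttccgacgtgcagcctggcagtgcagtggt

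Of the 51 members 43 matched a window. The GC box was found in 34 of the 43 (79.1%), against 44.6% of all 27305 windows and 70.4% of the 10210 windows of genes tested here. The ETS letters were found in 21 (48.8%), against 17.6% and 30.3%. The CCAAT box was found in 13 (30.2%, against 35.7% and 36.8%), the E-box in 5 (11.6%, against 7.43% and 10.1%), the TATA box in 2 (4.65%, against 12% and 5.38%), and the AP-1 site in 0 (against 4.92% and 3.05%). Among the windows shown, HEXIM1 alone held TATA letters, 29 bases before the start. GC boxes stood in all 3 and ETS letters in SKIC8. These are matches of letters, not sites.

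Other transcription genes were read as 6 lists of 138 genes: other elongation factors, Mediator, general transcription factors, Integrator, RNA polymerase I and III subunits, and cleavage and polyadenylation factors. Their ERCC-scale medians in low serum lay between -0.84 and -1.01 in WT and between -0.99 and -1.16 in knockout cells, beside -0.97 and -1.05 for all genes. Of all genes tested 27.0% were called lower in WT cells and 36.4% in knockout cells, the backgrounds of the counts that follow. Of 18 cleavage and polyadenylation factors 0 were called lower in WT cells (furthest CPSF3, the endonuclease, at -1.16, adjusted p = 0.0553) and 5 in knockout cells. For Integrator the counts were 1 and 5 of 14 (INTS1, -1.27 and -1.36), for the other elongation factors 2 and 7 of 22 (ELOC, -1.40 and -1.54), and for Mediator 3 and 11 of 32 (the kinase CDK8, -1.65 and -1.90). General transcription factors had 3 and 13 of 30, with ERCC2, the TFIIH helicase gene and not a spike-in, at -1.76 and -2.13. Polymerase I and III subunits had 3 and 9 of 19, with POLR3G at -1.97 and -2.17. No gene of these lists was called higher in low serum on the ERCC scale (backgrounds 0.831% in WT and 0.793% in knockout cells).

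Between genotypes 1 gene of these lists was called on the ERCC scale. Of all genes tested 3.81% were called higher and 4.20% lower in 10% serum, and 3.49% and 3.41% in 0.1% serum. POLR3G, an RNA polymerase III subunit known from stem cells, rose in knockout cells by 2.38 in 10% serum (adjusted p = 0.000483) and by 2.17 in 0.1% serum (adjusted p = 0.00289). In the other lists the furthest genes, none called, were ELOA (1.11), MED26 (1.21), CDK7 (1.15), PAPOLA (0.91) and INTS9 (0.78) in 10% serum. In 0.1% serum they were TCEA3 (1.33), TAF9 (0.96), MED26 (0.86), PAPOLA (0.76) and INTS6 (-0.73). On the relative scale knockout cells in 10% serum had 9 of 19 polymerase I and III subunits called higher and 0 lower, 9 and 3 of 32 Mediator genes, 8 and 1 of 30 general transcription factors, 7 and 2 of 22 other elongation factors, 4 and 0 of 18 cleavage and polyadenylation factors and 4 and 2 of 14 Integrator genes, where 17.9% and 21.4% of all genes were called. In 0.1% serum, in the same order, 4 and 1, 4 and 4, 9 and 2, 5 and 1, 1 and 1, and 1 and 3 were called, where 15.1% and 17.3% of all genes were.

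Reads of several members can be shared with other genes. Of the 58-base stretches of SUPT4H1 59.6% also occur in other genes' transcripts, with AC004687.2 the top match, of POLR2J 35.1% (POLR2J3), of TCEA1 14% (TCEA1P2), of POLR2D 5.99% and of SUPT16H 5.28%, so their counts are uncertain. The strand setting of the counting is not given in the sources used here. Exons of other genes on the opposite strand overlap CCNK over 4893 bases, RNF40 over 3076, PCF11 over 1691, POLR2I over 1204, UBE2A over 956, SUPT4H1 over 577, HEXIM1 over 520, ELL over 473, LARP7 over 334, CDC73 over 307, CTR9 over 276 and POLR2L over 257.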

How the data were processed

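RNA-seq libraries from 4 groups of 3 were analysed. Per the labels and the study's methods, the authors sequenced poly(A) RNA with ERCC spike-ins, and the submitters' processing notes name bcl2fastq 2.20.0.422, STAR 2.7.10a, featureCounts 1.5.1 and GRCh38. The deposited values are raw counts per gene, with 92 ERCC transcripts, used as deposited. Genes over 1 CPM in at least 3 libraries were kept (13236). The main test was edgeR 4.0.16 (R 4.3.3) quasi-likelihood over 12 libraries, with the ERCC total times a TMM factor on the ERCC counts as effective library size and Benjamini-Hochberg adjustment, p under 0.05. The relative scale used TMM on the genes. Alternatives were the likelihood ratio test, DESeq2 1.42.0, other size factors and filters, the 6 libraries compared, and libraries left out or summed. Depth was 26240632 to 45315560 gene counts. Tested on simulated data for WT cells in 0.1 against 10% serum (13236 genes), the fit recovered 150 of 200 genes changed 4-fold, with 4 false calls among 13036. The simulation drew noise gene by gene with the ERCC sizes taken as exact, so it held no shift shared by a library's genes. In the data the library median of the members had a pooled within-group SD of 0.538 log2 units on the ERCC scale and 0.0687 on the relative scale.

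The members, lists and rules were chosen with earlier results of these data known. Values in every library are given for PAF1C subunits and, in each comparison, for called members without overlap between groups (at most the 6 furthest). Those of other members on the relative scale, and the ratios shown, were chosen after their values were seen. Of other lists the counts and the furthest gene are given. Exon lengths, 58-base stretches and positions come from the GRCh38 annotation, promoters from RefSeq. One marker and 1 promoter window are not reported here.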

Additional observations from a re-analysis of the deposited data

Results flagged for a closer look

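MLLT1 was singled out because its serum response differed between genotypes. Relative to other genes the genotype-by-serum term was 0.62 on the log2 scale (edgeR quasi-likelihood test, adjusted p = 0.0319). Knockout against WT cells gave -0.20 in 10% serum (adjusted p = 0.101), where every knockout library lay below every WT library, and 0.42 in 0.1% serum (adjusted p = 0.00397), where every knockout library lay above. Of all genes tested, 30.1% lay below in this way in 10% serum and 20.5% above in 0.1% serum. The opposite directions in the 2 sera were seen without a test. The genotype-by-serum term tests whether the 2 differences are equal, not whether their signs are opposite. The difference in 10% serum was not called. That term was called in 3 of 12 fits that left out 1 library. It was not called when each group's 2 lowest-numbered libraries were added into 1 (0.56, adjusted p = 0.808).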

How the results depend on the processing

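Counts of members called in low serum depended on the fit and the scale, and LEO1 was called in both sera under every alternative run (-3.76 to -4.38 in 10% and -3.83 to -5.35 in 0.1% serum). On the ERCC scale the 10 members called lower in WT cells became 18 with DESeq2 and ERCC size factors, 4 without a filter, 6 with filterByExpr, 39 in the 6 libraries compared and 37 without the highest-numbered libraries, and the 20 in knockout cells became 31 with the likelihood ratio test, 37 with DESeq2, 6 without a filter, 0 in the 6 libraries compared and 51 without the highest-numbered libraries. Both became 0 when each group's 2 lowest-numbered libraries were added into 1, and ranged from 0 to 41 and from 0 to 51 with 1 library left out. With DESeq2 size factors on the genes in edgeR, WT cells had 1 higher and 6 lower and knockout cells 2 and 6; knockout against WT cells had 12 higher in 10% serum, 8 higher and 3 lower in 0.1% serum, and 1 interaction. TMM on the genes gave 2 higher (WT serum), 2 and 6 (knockout serum), 12 and 2 (10% serum), 8 and 3 (0.1% serum) and 1 (interaction). With DESeq2 size factors on the genes the median member in low serum was 0.0232 in WT and -0.026 in knockout cells, and with TMM on the genes 0.0206 and -0.0248. Without the highest-numbered libraries the medians were -1.74 (knockout serum), -0.29 (genotype in 0.1% serum) and -0.76 (interaction).

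The alternatives for relative calls were added after seeing the data. Without the highest-numbered libraries 11 and 10 members were higher and lower in low serum in WT cells, 8 and 11 in knockout cells, 21 and 10 between genotypes in 10% serum, 19 and 8 in 0.1% serum, and 5 and 6 for the interaction. With that sum these were 0 and 1, 0 and 0, 2 and 1, 0 and 1, and 0 and 0. The likelihood ratio test called 1 lower in 10% serum and 3 higher in WT cells in low serum. With 1 library left out, the higher and lower calls were 1 to 3 and 3 to 8 (WT serum), 1 to 3 and 5 to 8 (knockout serum), 7 to 16 and 1 to 6 (10% serum), 7 to 13 and 3 to 6 (0.1% serum), and 0 to 1 higher (interaction). The cause of these changes was not tested. A term for the highest-numbered library of each group, also added after seeing the data, changed the members called lower in low serum on the ERCC scale to 4 in WT and 6 in knockout cells. It changed those called higher relative to other genes in WT cells to 1 (IWS1 was lost, adjusted p = 0.0514 in edgeR's quasi-likelihood test), and ended no other relative call named here. Apart from that term no paired analysis was run, because libraries are numbered 1 to 12 across the series and groups share no replicate numbers.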
